A study of Mus musculus with 26 samples.

Results

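The data described here are the RNA-seq counts of one mouse embryonic stem cell (ESC) line, Grb10 pA, before and after 2 days of neural differentiation. They were chosen as the libraries labelled as ESCs and as neural progenitor cells (NPCs) of this line, 3 of each, so that 6 of the 26 libraries of the series and 6 of the 18 libraries of the table with the RNA truncation lines belong to them. All 55291 genes of the table were considered, and the 13268 genes that passed the filter on low counts over the 18 libraries were tested. The Grb10 pA line was made from E14 cells, a male mouse ESC line, by inserting the sequence of a self-cleaving peptide, eGFP and an SV40 polyadenylation signal behind the first coding exon of Grb10 on both alleles with CRISPR-Cas9. Cells were selected with puromycin, sorted for eGFP, grown up from single cells and checked by PCR and sequencing, and the number of clones behind the libraries is not given in the sources used here. A change shared by all libraries of the line may therefore belong to a clone as well as to the insertion, and these cannot be told apart here. The study made it to ask whether a shortened Grb10 transcript alters the chromatin loops that the protein CTCF holds at this locus, and the RNA-seq describes the same cells. WT is the parental E14 line without an insertion, and Podxl pA is a line with the same cassette in the gene Podxl. ESCs of all lines were grown in serum-containing N2B27 medium with LIF, the GSK3 inhibitor CHIR99021 and the MEK inhibitor PD0325901. NPCs of all lines were kept on laminin in N2B27 without LIF and without both inhibitors, and were collected on day 2. The study states that the 3 libraries of a group are biological replicates, and the labels do not say whether they came from separate differentiations.

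Naive ESCs renew themselves as long as LIF signals through STAT3 and the inhibitors hold GSK3 and MEK down. When these are withdrawn, the cells lose the naive transcription factors, pass through a formative state that resembles the early post-implantation epiblast, and in N2B27 medium go on to neural precursors marked by Sox1, while cells on other routes turn on genes of endoderm or mesoderm. Grb10 is an imprinted gene that encodes an adaptor protein, which binds the insulin and IGF1 receptors and dampens their signal.

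The guide RNA used for the insertion is shown because it marks where the transcript was interrupted. Its 20 bases are printed 5′ to 3′, with the 18 bases in capitals that match the end of an exon of Grb10 and the other bases in lower case:
Grb10 guide: GCCTGTGCACATTCTCAGgt
The capitals lie at chr11:11970423-11970440 on the minus strand of GRCm38, in the exon at chr11:11970423-11970642, which is exon 3 and the first coding exon of the transcript Grb10-201, and they reach the 3′ end of that exon. The exon ends at base 509 of the 5061 bases of this transcript. Grb10 spans chr11:11930508-12038683. Because counts were taken over the whole gene, reads from the exons kept upstream of the insertion were still counted.

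Grb10 itself was measured first, since it checks the labels. The Grb10 pA ESC libraries held 147, 132 and 154 normalized counts of Grb10, which are counts scaled to a common library size of 4360503, and the NPC libraries 259, 228 and 227. The WT ESC libraries held 554, 548 and 513 and the WT NPC libraries 3353, 3498 and 3551. Every Grb10 pA library thus lay below every WT library, in ESCs and in NPCs, and the ESC and NPC libraries of the Grb10 pA line did not overlap. Grb10 still rose with differentiation in the Grb10 pA line (log2 fold change 0.72 ± 0.10 SE, adjusted p = 5.1e-07). In WT it rose more (log2 fold change 2.68 ± 0.08 SE, adjusted p = 8.9e-20), and the difference between both changes was itself past the test (−1.96 ± 0.13, adjusted p = 1.1e-10). All 18 libraries entered 1 edgeR model, whose quasi-likelihood F test gave the p-values, adjusted after Benjamini and Hochberg over all tested genes. Genes count as called when their adjusted p does not exceed 0.05 and their log2 fold change is 0.5 or more in size.

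Differentiation changed a large share of the transcriptome of the Grb10 pA line. A total of 2280 genes were higher in NPCs, 17.2% of the tested genes, and 2310 genes were lower, 17.4% of them. Of these, 1332 and 1139 changed by more than 2-fold, and 271 and 177 by more than 8-fold. The median log2 fold change over all tested genes was −0.02. In WT, 2186 genes (16.5%) were higher and 2165 (16.3%) lower. The ESC and NPC libraries of the Grb10 pA line did not overlap for 7001 genes, 52.8% of those tested. This share is the background wherever single genes are said not to overlap. In a principal component analysis of these 6 libraries, the first component held 80.7% of the variance and separated ESCs from NPCs.

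**Figure D1:**
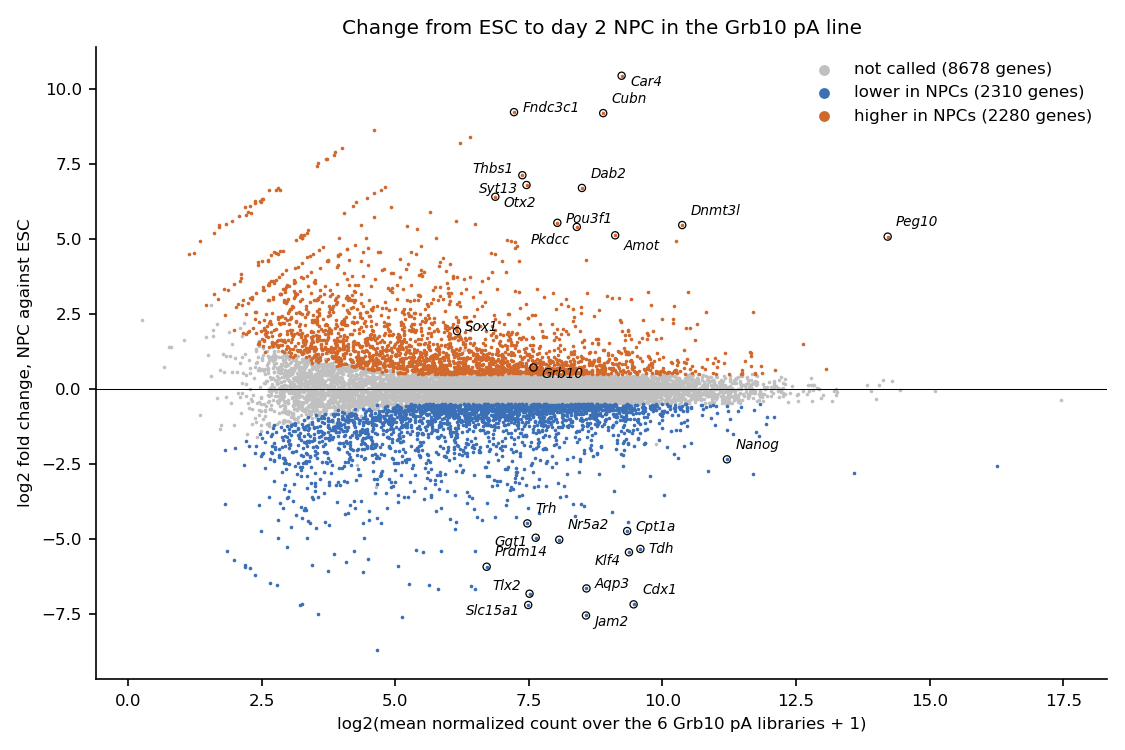
Each point is 1 of the 13268 tested genes. The horizontal axis is the log2 of the mean normalized count over the 6 Grb10 pA libraries plus 1, the vertical axis the log2 fold change of NPCs against ESCs, and colours mark the 2280 genes higher and the 2310 genes lower in NPCs. The named genes are the 12 largest rises and 12 largest falls among well counted genes, with Grb10, Sox1 and Nanog; Cubn lies near the top with 9.20 and Jam2 at the bottom with −7.55.

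The 6 libraries held between 3247822 and 8845087 counts on genes, within the range of 1907505 to 8845087 over all 18 libraries. ESC replicate 2 of the Grb10 pA line stood apart from the others of its group. It was the smallest of the 6, had 12.4% of its counts on rRNA-like genes against 5.19% and 5.60% in the other ESC libraries and 3.83% to 4.46% in the NPC libraries, and set itself apart on the second principal component, which held 9.12% of the variance. Mitochondrial genes held 0.106% to 0.260% of the counts in Grb10 pA ESCs and 0.451% to 0.608% in NPCs, and the part of these shares in the results was not tested beyond leaving these genes and that library out. Without this library, 4462 genes were called in place of 4590. Reads were counted without regard to strand, and those of overlapping genes on opposite strands were not told apart, and in whole cultures fewer cells of a kind cannot be told apart from less RNA per cell.

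Genes of naive pluripotency fell almost throughout. Of 16 such genes, all tested, 15 were lower in NPCs, against 17.4% of all tested genes, and 1 was higher, with a median log2 fold change of −2.57 beside the median over all tested genes of −0.02. Nanog, a homeodomain factor of the naive network, had 4237, 3504 and 4108 normalized counts in the ESC libraries and 743, 809 and 788 in the NPC libraries (log2 fold change −2.34 ± 0.09 SE, adjusted p = 4.5e-18). Esrrb, an orphan nuclear receptor that shares targets with Nanog, had 3127, 3388 and 3139 in ESCs and 413, 518 and 512 in NPCs (log2 fold change −2.75 ± 0.10 SE, adjusted p = 6.9e-18). No ESC library overlapped with an NPC library for either gene, as for 52.8% of all tested genes, and both genes were still well counted on day 2.

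Other factors of the naive state fell further. Klf4, a Krüppel-like factor downstream of STAT3, had 1241, 1365 and 1285 normalized counts in ESCs and 35.8, 26.1 and 23.9 in NPCs (log2 fold change −5.44 ± 0.14 SE, adjusted p = 2.4e-21). Klf2, a relative held up by MEK inhibition, went from 632, 719 and 737 to 49.6, 46.7 and 41.8 (log2 fold change −3.90 ± 0.12 SE, adjusted p = 7.7e-20). Prdm14, which keeps DNA methylation low in naive cells, went from 203, 178 and 232 to 1.96, 2.17 and 5.97 (log2 fold change −5.93 ± 0.27 SE, adjusted p = 3.9e-16). These genes were near the bottom of their range in every NPC library. Smaller falls were seen for Klf5 (−1.22 ± 0.12), Tet2 (−0.82 ± 0.11), Fgf4 (−0.87 ± 0.10) and Gbx2 (−0.72 ± 0.15). Dppa3 rose, from 6.60, 7.53 and 2.07 normalized counts in ESCs to 11.3, 16.3 and 13.4 in NPCs (log2 fold change 1.32 ± 0.43 SE, adjusted p = 0.012), and without ESC replicate 3 of the Grb10 pA line its value was 0.91 at an adjusted p of 0.104.

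Zfp42, which encodes the naive marker Rex1, had 669.9, 710.4 and 813 normalized counts in ESCs and 205, 165 and 198 in NPCs (log2 fold change −1.93 ± 0.12 SE, adjusted p = 2.9e-13), without overlap. The 250 bases upstream of its RefSeq start at chr8:43307010-43307259, minus strand of GRCm38.p6, are shown because they hold the octamer ATTTGCAT, the reverse complement of ATGCAAAT, which POU factors such as Oct4 bind. The octamer is in capitals, 65 bases from the 5′ end of the window:
Zfp42 promoter: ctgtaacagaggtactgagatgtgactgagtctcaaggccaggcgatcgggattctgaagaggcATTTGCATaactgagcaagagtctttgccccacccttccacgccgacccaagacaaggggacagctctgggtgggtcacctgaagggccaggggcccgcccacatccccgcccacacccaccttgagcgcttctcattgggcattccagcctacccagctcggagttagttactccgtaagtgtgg
Searched on both strands, ATGCAAAT was found in 1.60% of the 32851 windows of this length in the RefSeq table. It was found in 1.82% of the windows of genes higher in NPCs, in 1.72% of those lower and in 1.10% of those of tested genes that were not called. The median window held 14 CpG dinucleotides among higher genes, 13 among lower genes and 17 among tested genes not called.

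**Figure D2:**
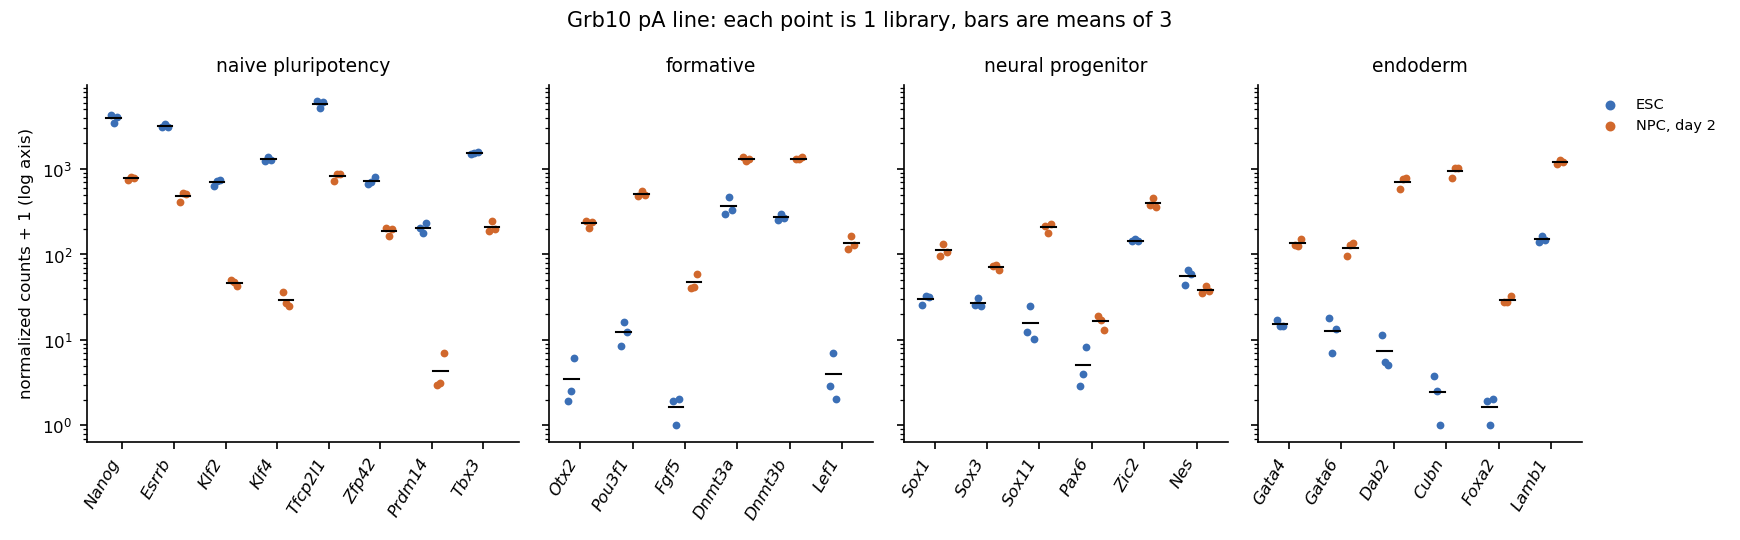
Normalized counts plus 1 on a log axis for markers of 4 states, in the 3 ESC and 3 NPC libraries of the Grb10 pA line. Points are single libraries and bars are means of 3. The plotted markers are a choice from longer lists. All naive markers plotted lie lower in NPCs and all formative and endoderm markers plotted higher, while among neural progenitor markers Nes lies slightly lower in NPCs. Among the members left out are Dppa3 (naive, higher), Foxd3 (formative, lower), Ncam1, Msi1 and Sox21 (neural progenitor, lower), and Sparc and Hhex (endoderm, not called).

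Factors shared by naive and later pluripotent cells changed in both directions. Of 13 tested genes, 3 were higher and 5 lower, against 17.2% and 17.4% of all tested genes, with a median of −0.15. Pou5f1, which encodes Oct4, had 2308, 3573 and 2587 normalized counts in ESCs and 1255, 1171 and 1229 in NPCs (log2 fold change −1.21 ± 0.12 SE, adjusted p = 2.7e-09). Sox2, which pluripotent and neural cells share, fell from 1474, 1359 and 1525 to 552, 623 and 603 (log2 fold change −1.30 ± 0.10 SE, adjusted p = 7.7e-12). Both therefore remained well counted on day 2. Lin28a, which encodes an RNA-binding protein that blocks the maturation of let-7, rose from 545, 643 and 564 to 2733, 2559 and 2629 (log2 fold change 2.18 ± 0.08 SE, adjusted p = 8.2e-18), and Utf1, a chromatin factor of the epiblast, rose with 2.35 ± 0.11. Sall4 (−0.40 ± 0.10) and Trim71 (0.10, adjusted p = 0.27) were not called.

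Most formative genes rose. Of 10 tested genes, 9 were higher in NPCs, against 17.2% of all tested genes, and 1 was lower, with a median log2 fold change of 3.34 beside the median over all tested genes of −0.02. Otx2, a homeodomain factor that drives cells out of the naive state, had 0.944, 1.51 and 5.17 normalized counts in ESCs and 248, 205 and 237 in NPCs (log2 fold change 6.41 ± 0.28 SE, adjusted p = 1.3e-16). Pou3f1, which encodes the POU factor Oct6, had 7.55, 15.1 and 11.4 and 481, 551 and 501 (log2 fold change 5.54 ± 0.16 SE, adjusted p = 1.5e-20). Fgf5, a secreted factor and marker of the epiblast after implantation, had 2 counts in all ESC libraries together and 196 in the NPC libraries, a ratio of 61.4, with an exact 95% counting interval of 16.8 to 510.3. In all 3 genes the ESC libraries were close to 0 and the NPC libraries clearly above. Lef1, a transcription factor at the end of the WNT pathway, rose from 1.89, 6.02 and 1.03 to 115, 162 and 129 (log2 fold change 5.61 ± 0.32 SE, adjusted p = 4.0e-14). Foxd3, the exception, fell from 5.66, 7.53 and 2.07 to 1.47, 0 and 1.49 (log2 fold change −1.96 ± 0.64 SE, adjusted p = 0.013). Its call was lost without ESC replicate 1 of the Grb10 pA line (−1.80, adjusted p = 0.061) and without ESC replicate 2 (−1.66, adjusted p = 0.066).

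Among 12 tested genes of DNA methylation, 3 were higher and 3 lower, against 17.2% and 17.4% of all tested genes. The median was 0.00, and the 3 that rose were those of de novo methylation. Dnmt3l, a cofactor without catalytic activity, had 69.8, 61.7 and 43.4 normalized counts in ESCs and 2526, 2652 and 2589.6 in NPCs (log2 fold change 5.47 ± 0.15 SE, adjusted p = 5.3e-21). Dnmt3b went from 256, 295 and 265 to 1308, 1298 and 1365 (log2 fold change 2.29 ± 0.08 SE, adjusted p = 1.7e-18) and Dnmt3a from 300.0, 474 and 326 to 1379, 1236 and 1306 (log2 fold change 1.85 ± 0.11 SE, adjusted p = 5.1e-14). The ESC and NPC libraries did not overlap for any of these genes, as for 52.8% of all tested genes. Prdm14 and Tet2, which act against methylation, fell as given above. The third gene that was lower was that of the maintenance enzyme Dnmt1 (log2 fold change −0.55 ± 0.09 SE, adjusted p = 9.2e-06), whose value was −0.43 without ESC replicate 2 of the Grb10 pA line and −0.49 without NPC replicate 1, short of the size needed for a call.

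Markers of neural progenitors, against which the NPC label was checked, rose in part. Of 20 genes, 13 were tested, and 9 of them were higher and 4 lower in NPCs, against 17.2% and 17.4% of all tested genes. Their median was 1.46. Sox1, the earliest marker of committed neuroectoderm, had 24.5, 31.6 and 31.0 normalized counts in ESCs and 96.2, 133 and 107 in NPCs (log2 fold change 1.93 ± 0.17 SE, adjusted p = 1.8e-10). Sox11, a factor of neural precursors, had 11.3, 24.1 and 9.30 and 217, 178 and 227 (log2 fold change 3.91 ± 0.20 SE, adjusted p = 6.8e-15). Sox3 rose with 1.45 ± 0.20, Prom1 with 2.01 ± 0.23, Zic2 with 1.46 ± 0.12 and Zic5 with 1.48 ± 0.13. Pax6, a marker of radial glia and the eye field, rose from 1.89, 3.01 and 7.23 to 18.2, 16.3 and 11.9 (log2 fold change 1.91 ± 0.48 SE, adjusted p = 0.0017), so that few reads fell on it in either state.

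Other defining markers of neural progenitors were low or went the other way. Nes, which encodes the intermediate filament nestin, had 43.4, 64.7 and 57.9 normalized counts in ESCs and 34.8, 41.3 and 36.5 in NPCs (log2 fold change −0.55 ± 0.18 SE, adjusted p = 0.011). Its call was lost without ESC replicate 2 of the Grb10 pA line (−0.43, adjusted p = 0.062) and without NPC replicate 1 (−0.47, adjusted p = 0.064). Ncam1 (−1.03 ± 0.18), Msi1 (−0.69 ± 0.10) and Sox21 (−1.44 ± 0.47) were also lower. Fabp7 and Olig2 had no count in any of the 6 libraries, and Hes5, Zic1, Pou3f2, Pou3f3 and Dach1 did not pass the filter.

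Markers of brain regions were few, and their counts stand beside 17.2% higher and 17.4% lower of all tested genes. Of 13 forebrain genes 3 were tested, with Pax6 higher, Hesx1 lower (−1.32 ± 0.44) and Lhx2 not called, and with a median of −0.15. The call of Hesx1 was lost without ESC replicate 1, ESC replicate 3, NPC replicate 1 or NPC replicate 3 of the Grb10 pA line, with values from −1.25 to −0.90 and adjusted p from 0.051 to 0.096. Of 14 midbrain and hindbrain genes 7 were tested, 3 were higher and 2 lower, with a median of 0.65. Fgf8, the signal of the midbrain-hindbrain boundary, rose from 4.72, 4.52 and 4.13 to 27.5, 31.5 and 30.6 normalized counts (log2 fold change 2.70 ± 0.33 SE, adjusted p = 1.4e-07), and Irx3 rose with 2.15 ± 0.40. Gbx2, a factor of the anterior hindbrain that naive ESCs also use, fell from 124, 122 and 125 to 58.9, 101 and 73.1 (log2 fold change −0.72 ± 0.15 SE, adjusted p = 2.7e-04).

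Hox and Cdx genes, which set position along the body axis, moved in both directions. Their counts stand beside 17.2% higher and 17.4% lower of all tested genes. Of 21 genes 12 were tested, 6 were higher and 3 lower, with a median of 1.64, also with the 2 genes that had no count in ESCs at their lower bound. Hoxb1, expressed in the hindbrain, had no count in the 3 ESC libraries and 20.6, 27.2 and 25.4 normalized counts in the NPC libraries. Against the 3 counts over the group that a count of 0 allows, it was at least 21.1-fold higher in NPCs (adjusted p = 2.1e-08). Hoxa5 rose from 7.55, 7.53 and 5.17 to 42.7, 54.3 and 38.0 (log2 fold change 2.70 ± 0.32 SE, adjusted p = 8.0e-08). Cdx1, a caudal factor and a WNT target in ESCs, fell from 1306, 1627 and 1264 to 11.8, 10.9 and 5.22 (log2 fold change −7.18 ± 0.19 SE, adjusted p = 5.3e-21), and Cdx2, its relative, fell from 19.8, 16.6 and 23.8 to 3.43, 2.17 and 13.4 (log2 fold change −1.67 ± 0.42 SE, adjusted p = 0.0017). The summed level of the list, which Cdx1 dominated in ESCs, lay at 1536 to 1886 normalized counts in ESCs and 367 to 499 in NPCs.

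Genes of neurons and of other ectodermal cells were mixed, and their counts stand beside 17.2% higher and 17.4% lower of all tested genes. Of 19 neuronal genes 11 were tested, 5 were higher and 3 lower, with a median of 0.23. Crmp1, a protein of growing axons, rose from 2.83, 3.01 and 4.13 to 74.1, 77.2 and 85.0 normalized counts (log2 fold change 4.51 ± 0.28 SE, adjusted p = 1.8e-13), whereas Stmn2, which binds tubulin in growth cones, fell from 661, 771 and 635 to 146, 141 and 154 (log2 fold change −2.22 ± 0.10 SE, adjusted p = 6.9e-16) and Tubb3, a neuronal tubulin, fell with −1.47 ± 0.11. The neurogenic factors Neurog1, Neurog2 and Neurod1 and the neuroblast marker Dcx did not pass the filter. Of 9 glial genes 4 were tested, 2 were higher and 1 lower, with a median of 0.57. Slc1a3, a glutamate transporter of radial glia, rose with 3.22 ± 0.22, and Aldh1l1, an enzyme of folate metabolism, fell with −3.53 ± 0.18. Of 12 genes of the neural crest and neural plate border 4 were tested, 1 was higher and 2 lower, with a median of −0.74, and Sox10, Pax3 and Pax7 did not pass the filter. Of 13 surface ectoderm genes 10 were tested, 5 were higher and 3 lower, with a median of 0.82. Gata3 rose from 0.944, 4.52 and 1.03 to 35.3, 56.5 and 53.7 (log2 fold change 4.58 ± 0.42 SE, adjusted p = 7.9e-10), and the keratin gene Krt8 rose with 0.84 ± 0.18. The 3 lower genes of this list were Tfap2a, Tfap2c and Grhl3. The call of Tfap2a was lost without NPC replicate 1 of the Grb10 pA line (−0.86, adjusted p = 0.063).

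Endoderm genes rose alongside the neural markers. Of 20 genes 16 were tested, 14 were higher in NPCs and none lower, against 17.2% and 17.4% of all tested genes, with a median log2 fold change of 3.03 beside the median over all tested genes of −0.02. Cubn, which encodes an endocytic receptor of the visceral endoderm, had 2.83, 1.51 and 0 normalized counts in ESCs and 785, 1018 and 1039 in NPCs (log2 fold change 9.20 ± 0.48 SE, adjusted p = 5.6e-15). Dab2, an endocytic adaptor of the same epithelium, had 10.4, 4.52 and 4.13 and 578, 774 and 788 (log2 fold change 6.71 ± 0.26 SE, adjusted p = 1.4e-17). Gata4 and Gata6, the transcription factors of primitive endoderm, rose with 3.21 ± 0.19 and 3.20 ± 0.23. Foxa2, a forkhead factor of endoderm and floor plate, had 2 counts over the ESC libraries and 121 over the NPC libraries, a ratio of 37.9, with an exact 95% counting interval of 10.3 to 316. The basement membrane genes Lamb1, from 139.6, 164 and 148 to 1151, 1263 and 1196 (log2 fold change 3.01 ± 0.10 SE, adjusted p = 6.1e-19), and Col4a1 (3.05 ± 0.13) rose as well. Sparc (0.37 ± 0.08) and Hhex (−0.50 ± 0.24) were not called, and Afp, Ttr, Apoa1 and Cer1 did not pass the filter.

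The summed level of the 20 endoderm genes lay between 2116 and 2423 normalized counts in the Grb10 pA ESC libraries and between 6622 and 7970.1 in the NPC libraries. In WT it lay between 1991 and 2038 and between 7368 and 9198. The other lists of cells outside the neural lineage moved less in sum, with 141 to 190.1 in ESCs and 382 to 464 in NPCs for 15 mesoderm genes, 927 to 971 and 674 to 797 for 9 trophoblast genes, and 905 to 1011 and 1009 to 1093 for 13 surface ectoderm genes. The part of such cells in the changes of other genes was not tested.

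Of 15 mesoderm genes 8 were tested, 5 were higher and 1 lower, with a median of 1.27. As for the lists that follow, the background was 17.2% higher and 17.4% lower among all tested genes. Eomes, a T-box factor of the primitive streak and trophoblast, had 129, 93.3 and 148 normalized counts in ESCs and 268, 325 and 278 in NPCs (log2 fold change 1.20 ± 0.13 SE, adjusted p = 2.4e-08), while T, which encodes Brachyury, fell from 14.2, 21.1 and 15.5 to 0.491, 1.09 and 1.49 (log2 fold change −3.98 ± 0.51 SE, adjusted p = 2.6e-07). Hand1 had 1 count over the ESC libraries and 219 over the NPC libraries, a ratio of 137, with an exact 95% counting interval of 24.4 to 5441. Mixl1, Tbx6, Mesp1, Msgn1 and Kdr did not pass the filter. Of 9 trophoblast genes 8 were tested, 4 were higher and 3 lower, with a median of 0.99. Of 10 genes of 2-cell-like cells 3 were tested and none was called, with a median of 1.65. Of 14 germline genes 13 were tested, 6 were higher and 2 lower, with a median of 0.31, Tex19.1 rising from 281, 364 and 322 to 532, 499 and 595 (log2 fold change 0.76 ± 0.11 SE, adjusted p = 1.4e-06) and Dazl falling with −1.47 ± 0.16.

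Genes of the LIF, WNT and ERK pathways, on which LIF and the inhibitors act, were counted next. Of 10 tested genes of LIF and STAT3 signalling, 8 were lower and none higher, against 17.4% and 17.2% of all tested genes. Their median was −1.60. The receptor gene Lifr had 556, 469.6 and 539 normalized counts in ESCs and 136, 196 and 174 in NPCs (log2 fold change −1.66 ± 0.12 SE, adjusted p = 5.9e-12), and its partner Il6st fell with −0.64 ± 0.08. Stat3 itself went from 806, 802 and 799.6 to 276, 287 and 265 (log2 fold change −1.54 ± 0.08 SE, adjusted p = 2.7e-15). The target Socs3, an inhibitor of the same pathway, went from 478, 581 and 442 to 32.4, 40.2 and 53.7 (log2 fold change −3.59 ± 0.16 SE, adjusted p = 2.7e-16). Pim1 (−0.48 ± 0.08) and Pim3 were not called.

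Of 12 WNT target genes 10 were tested, 6 were lower and 1, Lef1, was higher, against 17.4% and 17.2% of all tested genes. Their median was −1.51. Axin2, a negative regulator of the pathway and a general target, had 342, 436 and 365 normalized counts in ESCs and 63.8, 86.9 and 67.9 in NPCs (log2 fold change −2.41 ± 0.14 SE, adjusted p = 2.8e-14). Notum, which encodes an extracellular enzyme that inactivates WNT proteins, had 84.0, 99.3 and 117 and 3.93, 7.61 and 7.46 (log2 fold change −4.06 ± 0.24 SE, adjusted p = 9.5e-14). Sp5, a zinc finger factor induced by β-catenin, had 77.4, 97.8 and 86.8 and 1.96, 4.35 and 0 (log2 fold change −5.45 ± 0.35 SE, adjusted p = 6.5e-13), the lowest NPC library without a count. The ESC and NPC libraries did not overlap for any of these genes, as for 52.8% of all tested genes. Tcf7, Nkd1 and Dkk1 were not called.

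The 250 bases upstream of the RefSeq start of Sp5, chr2:70474673-70474922 on the plus strand of GRCm38.p6, are shown because Sp5 fell the furthest of the WNT targets other than Cdx1 and because they hold CTTTGAT, the letters that TCF and LEF factors bind. The match is in capitals, 147 bases from the 5′ end of the window:
Sp5 promoter: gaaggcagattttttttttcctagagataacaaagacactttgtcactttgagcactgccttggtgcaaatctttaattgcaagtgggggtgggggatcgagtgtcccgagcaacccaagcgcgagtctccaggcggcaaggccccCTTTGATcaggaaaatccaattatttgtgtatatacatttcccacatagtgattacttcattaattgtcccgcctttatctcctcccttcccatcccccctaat
Searched on both strands, CTTTGAT was found in 3.21% of all windows. Among tested genes it was found in 2.04% of the windows of higher genes, 2.75% of those of lower genes and 2.15% of those of genes not called. The STAT motif TTCCNGGAA was found in 0.477%, 1.03% and 1.05% of these windows. The windows of the other WNT targets Axin2, T, Lef1, Tcf7, Nkd1 and Dkk1 held no such match. It was found in the window of Cubn, which rose, and in 1 window of Ggt1, which fell. The match in the Sp5 window is a description of its letters.

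Of 17 genes that respond to ERK, the kinase downstream of MEK, 15 were tested. Of these, 9 were higher and 1 lower, against 17.2% and 17.4% of all tested genes, with a median of 0.72. Dusp6, a phosphatase that acts on ERK, had 75.5, 76.8 and 76.4 normalized counts in ESCs and 679, 698 and 715 in NPCs (log2 fold change 3.19 ± 0.09 SE, adjusted p = 3.6e-20). Dusp4, a nuclear relative, had 11.3, 25.6 and 12.4 and 296, 312 and 291 (log2 fold change 4.28 ± 0.17 SE, adjusted p = 4.7e-17). Egr1 rose with 2.78 ± 0.54, Spry4 with 1.36 ± 0.15, and Etv4 fell with −0.65 ± 0.10. Spry2, an inhibitor of receptor tyrosine kinase signalling, was not called, with 271, 313 and 277 in ESCs and 204, 227 and 239 in NPCs (−0.36 ± 0.10).

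Nodal signalling, which maintains the epiblast and patterns mesendoderm, showed rises and falls in equal number. Of 12 genes 11 were tested, 5 were higher and 5 lower, against 17.2% and 17.4% of all tested genes, with a median of 0.01. The ligand gene Nodal rose from 230.2, 241 and 242 to 551, 554 and 538 normalized counts (log2 fold change 1.21 ± 0.08 SE, adjusted p = 1.2e-12). Foxh1, the DNA-binding partner of SMAD proteins in this pathway, rose with 1.84 ± 0.13. The target gene Lefty1 rose from 176, 299.5 and 194 to 1644, 1473 and 1505 (log2 fold change 2.82 ± 0.13 SE, adjusted p = 3.8e-16). The coreceptor gene Tdgf1 fell with −1.81 ± 0.12, Lefty2 with −0.71 ± 0.10, and Inhbb, a subunit of activin B, fell from 86.8, 138 and 99.2 to 0.491, 3.26 and 0 (log2 fold change −6.66 ± 0.39 SE, adjusted p = 7.7e-14).

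Of 19 BMP genes 14 were tested, 5 were higher and 4 lower, against 17.2% and 17.4% of all tested genes, with a median of −0.04. The ligand genes Bmp4 (−0.64 ± 0.18) and Bmp7 (−0.65 ± 0.16) fell, and the other genes that fell were Msx2 and Smad7. Of the target genes of the Id family, inhibitors of basic helix-loop-helix factors, Id1, Id2 and Id3 rose and Id4 did not pass the filter. Id1 had 6.60, 12.04 and 11.4 normalized counts in ESCs and 123, 122 and 145 in NPCs (log2 fold change 3.73 ± 0.26 SE, adjusted p = 3.2e-12), Id2 10.4, 3.01 and 13.4 and 216, 231 and 221 (log2 fold change 4.52 ± 0.25 SE, adjusted p = 2.2e-14), and Id3 1.89, 6.02 and 1.03 and 34.3, 35.9 and 41.0 (log2 fold change 3.76 ± 0.38 SE, adjusted p = 4.2e-09). No ESC library reached an NPC library for any of the 3 genes, as for 52.8% of all tested genes.

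Of 15 hedgehog genes 12 were tested, 6 were higher and 4 lower, with a median of 0.45. As for the Notch and retinoic acid lists below, the background was 17.2% higher and 17.4% lower among all tested genes. Smo, the signal transducer, rose with 1.04 ± 0.09 and Gli3 with 1.10 ± 0.12, whereas Gli2 fell from 426, 432 and 442 to 62.3, 96.7 and 83.5 normalized counts (log2 fold change −2.47 ± 0.14 SE, adjusted p = 2.7e-14) and Gli1 with −1.31 ± 0.35. Shh did not pass the filter. Of 19 Notch genes 15 were tested, 5 were higher and 4 lower, with a median of 0.20. Notch3 rose from 213, 322 and 222 to 971, 1024 and 868 (log2 fold change 1.94 ± 0.12 SE, adjusted p = 2.4e-13), and Notch4 fell from 146, 233 and 179 to 8.34, 6.52 and 11.2 (log2 fold change −4.36 ± 0.21 SE, adjusted p = 1.5e-15). Rbpj, the DNA-binding factor of the pathway, rose with 1.11 ± 0.09, and the target gene Hes1 fell with −0.77 ± 0.15. Of 19 retinoic acid genes 18 were tested, 8 were higher and 7 lower, with a median of 0.58. Cyp26a1, which degrades retinoic acid, rose from 4.72, 4.52 and 5.17 to 35.8, 34.8 and 45.5 (log2 fold change 2.97 ± 0.32 SE, adjusted p = 1.5e-08), and Aldh1a3, which makes it, fell from 20.8, 25.6 and 21.7 to 0.491, 1.09 and 1.49 (log2 fold change −4.42 ± 0.63 SE, adjusted p = 1.8e-06).

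The insulin and IGF pathway, on which the Grb10 protein acts, was measured with 29 genes, of which 28 were tested. Of these, 12 were higher and 2 lower, against 17.2% and 17.4% of all tested genes, with a median of 0.35. Among ligands, Igf2 had 1 count over the ESC libraries and 169 over the NPC libraries, a ratio of 106, with an exact 95% counting interval of 18.7 to 4204. Among receptors, Insr rose from 158, 167 and 160.1 to 217, 271 and 260.2 normalized counts (log2 fold change 0.62 ± 0.11 SE, adjusted p = 4.0e-05) and Igf1r from 178, 189.7 and 201 to 307, 397 and 311 (log2 fold change 0.82 ± 0.14 SE, adjusted p = 1.4e-05), while Igf2r was not called, with 613, 718 and 591 and 586, 774 and 605. The binding protein genes Igfbp3 (2.90 ± 0.17) and Igfbp5 (3.66 ± 0.22) rose. Among adaptors, Irs2 rose with 1.73 ± 0.14 and Grb14, the closest relative of Grb10 together with Grb7, rose from 3.77, 7.53 and 4.13 to 23.1, 23.9 and 13.4 (log2 fold change 2.03 ± 0.42 SE, adjusted p = 2.5e-04). Grb7 had 132, 179 and 136 in ESCs and 184, 191 and 207 in NPCs and was not called (0.40 ± 0.12), nor was Grb2 (−0.30 ± 0.08). Foxo3, a transcription factor that insulin signalling keeps out of the nucleus, fell from 1207, 1186 and 1136 to 431, 495 and 465 (log2 fold change −1.35 ± 0.08 SE, adjusted p = 6.8e-14).

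Of 29 imprinted genes other than Grb10, 25 were tested, and 16 were higher and 2 lower, against 17.2% and 17.4% of all tested genes. Their median was 1.24. Peg10, derived from a retrotransposon, held 1158, 938 and 1167 normalized counts in ESCs and 33755, 40828 and 36287 in NPCs (log2 fold change 5.08 ± 0.19 SE, adjusted p = 6.4e-18), the largest gain in normalized counts of any gene called in the comparison. Its share makes the summed level of the list 6304 to 7032 in ESCs and 42727 to 50904 in NPCs. Mest rose from 289.7, 313 and 306 to 1808, 2315 and 2092 (log2 fold change 2.77 ± 0.11 SE, adjusted p = 9.6e-18), Peg3 with 1.94 ± 0.10, and Meg3 with 1.32 ± 0.13. H19 had 1 count over the ESC libraries and 204 over the NPC libraries, a ratio of 128, with an exact 95% counting interval of 22.7 to 5070.0. Plagl1, a zinc finger gene, fell from 736, 587 and 653 to 35.8, 60.9 and 49.2 (log2 fold change −3.83 ± 0.17 SE, adjusted p = 3.5e-16), and Ddc fell with −2.08 ± 0.19. Igf2r, Ndn and Kcnq1ot1 were among the 7 not called.

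Ddc, which encodes aromatic L-amino acid decarboxylase, is also a neighbour of Grb10. Of the 25 annotated genes within 1 Mb of Grb10, itself included, 5 were tested. Of these, 2 were higher and 3 lower, against 17.2% and 17.4% of all tested genes. Ddc had 89.6, 79.8 and 91.9 normalized counts in ESCs and 20.6, 14.1 and 25.4 in NPCs (log2 fold change −2.08 ± 0.19 SE, adjusted p = 6.2e-10). Cobl, an actin nucleator, fell from 1038, 963 and 1011 to 104, 81.5 and 96.2 (log2 fold change −3.40 ± 0.10 SE, adjusted p = 3.8e-20), and Fignl1 with −0.63 ± 0.11. Ikzf1 had 2 counts over the ESC libraries and 26 over the NPC libraries, a ratio of 8.14, with an exact 95% counting interval of 2.04 to 70.8, and without NPC replicate 1 of the Grb10 pA line its adjusted p was 0.051. The other 20 genes were at or close to 0 in all libraries and were not tested. In WT, Cobl fell by 3.42 on the log2 scale and Fignl1 by 0.51, and their differences from WT were not past the test (adjusted p = 0.94 and 0.71), whereas the fall of Ddc was larger than in WT (−1.35 ± 0.26, adjusted p = 0.002).

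Genes of adhesion and of axon guidance changed in both directions. Of 18 genes of cadherins and epithelial junctions 16 were tested, 11 were higher and 2 lower, against 17.2% and 17.4% of all tested genes, with a median of 1.43. Epcam rose from 182, 209 and 212 to 1111, 844 and 978 normalized counts (log2 fold change 2.29 ± 0.10 SE, adjusted p = 9.1e-17), Cdh2, which encodes N-cadherin, from 7.55, 4.52 and 10.3 to 43.2, 47.8 and 40.3 (log2 fold change 2.46 ± 0.26 SE, adjusted p = 7.5e-09), and the splicing regulator Esrp1 with 4.16 ± 0.22. Cdh1, which encodes E-cadherin, was not called, with 2559.8, 2447 and 2483 and 1847, 2118 and 1888 (−0.36 ± 0.07), and Fn1 fell with −1.50 ± 0.12. Of 28 axon guidance genes 17 were tested, 7 were higher and 9 lower, with a median of −0.52. Efnb2, an ephrin, rose from 8.49, 19.6 and 11.4 to 235, 256 and 229 (log2 fold change 4.27 ± 0.22 SE, adjusted p = 3.9e-15), and Ntn1, which encodes netrin-1, fell from 175, 278 and 211 to 9.81, 9.78 and 14.2 (log2 fold change −4.27 ± 0.21 SE, adjusted p = 1.4e-15).

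Glycolysis, cholesterol synthesis, p53 target and cell cycle genes were counted against the 17.2% of all tested genes that were higher and the 17.4% that were lower. Of 21 glycolysis genes 2 were higher and 5 lower, with a median of 0.11. Slc2a1, the main glucose transporter, rose from 6438, 6594 and 6697 to 10347, 11145 and 10018 normalized counts (log2 fold change 0.68 ± 0.08 SE, adjusted p = 1.0e-07), and Pfkp and Ldhb fell with −1.91 ± 0.09 and −2.13 ± 0.10. Of 20 cholesterol synthesis genes 1 was higher and 1 lower, with a median of 0.04. Of 16 p53 target genes 15 were tested, 9 were higher and 1 lower, with a median of 0.64, and the one that fell was Cdkn1a, from 1106, 1099 and 1152 to 302, 302 and 304 (log2 fold change −1.89 ± 0.09 SE, adjusted p = 3.8e-16). Of 21 cell cycle genes 6 were higher and 5 lower, with a median of 0.08, and Ccnd2 rose with 2.18 ± 0.14.

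Of 12 genes of CTCF and cohesin 1 was higher and none lower, against 17.2% and 17.4% of all tested genes, with a median of 0.07. Ctcf had 671, 584 and 685 normalized counts in ESCs and 692, 702 and 676 in NPCs, which overlap (0.09 ± 0.07, adjusted p = 0.33), and Stag2, a cohesin subunit on the X chromosome, rose with 0.87 ± 0.10. Of 11 stress genes 10 were tested, 3 were higher and none lower, with a median of 0.34 and Chac1, an enzyme of glutathione breakdown, rising from 496, 494 and 506 to 1023, 1039 and 1038 (log2 fold change 1.05 ± 0.09 SE, adjusted p = 7.7e-11). Of 4 Y-linked genes, which check that the male karyotype was kept, all were tested and 1, Kdm5d, was higher, with a median of 0.36. The call of Kdm5d was lost without ESC replicate 1 or NPC replicate 1 of the Grb10 pA line, with values from 0.83 to 1.01. On the X chromosome 30.2% of 473 tested genes were higher and 10.6% lower, with a median of 0.21, while the medians of all autosomes lay between −0.14 and 0.02. In WT, 28.1% of these X-linked genes were higher and 12.1% lower, with a median of 0.07.

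**Figure D3:**
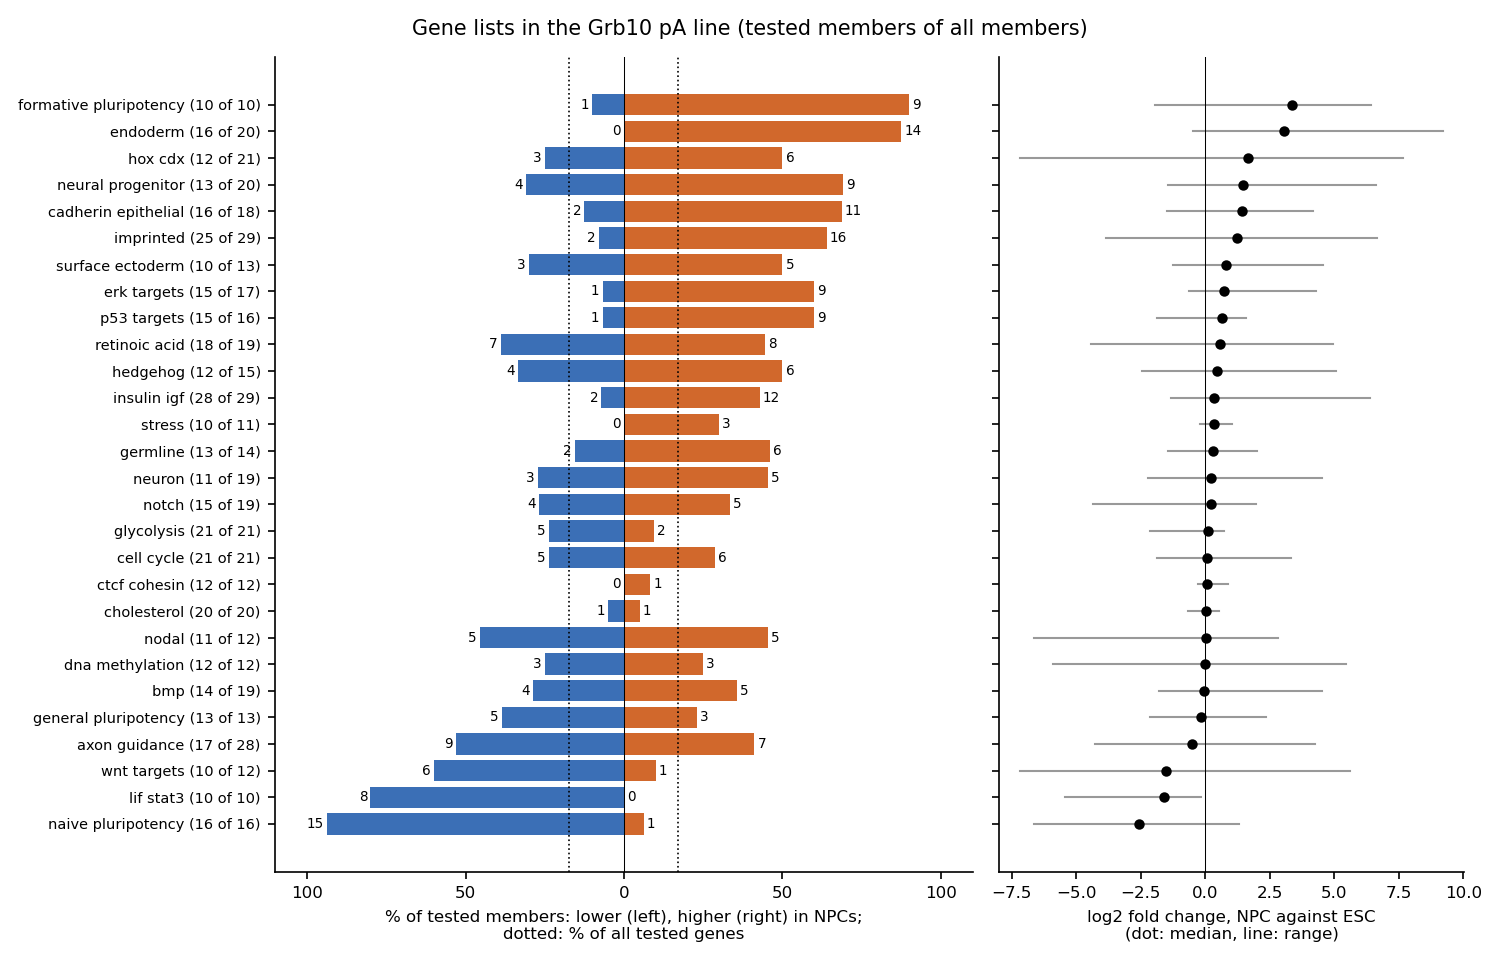
Gene lists with at least 10 tested members, sorted by median. On the left, bars give the percent of tested members called lower (left of 0) and higher (right of 0) in Grb10 pA NPCs, with the number of genes at each bar and the background of all tested genes as dotted lines at 17.4% and 17.2%; on the right, dots are median log2 fold changes and lines the range over members. Formative genes stand at the top with a median of 3.34 and naive genes at the bottom with −2.57.

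By size, the largest rise among well counted genes was that of Car4, which encodes a carbonic anhydrase at the cell surface. It had 2 counts over the Grb10 pA ESC libraries and 5065 over the NPC libraries, a ratio of 1586, with an exact 95% counting interval of 439 to 13100.0. Fndc3c1 had 1 count and 1243, a ratio of 778, with an exact 95% counting interval of 139 to 30770.0. Thbs1, a matrix glycoprotein that binds TGF-β, rose from 2.83, 1.51 and 2.07 to 334, 349 and 304 normalized counts (log2 fold change 7.13 ± 0.34 SE, adjusted p = 7.0e-16). The other large rises were those of Syt13 (6.81 ± 0.38), Pkdcc (5.41 ± 0.20) and Amot (5.13 ± 0.15), a regulator of the Hippo pathway, besides Cubn, Dab2, Otx2, Pou3f1, Dnmt3l and Peg10.

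The largest fall was that of Jam2, a junctional adhesion molecule, from 810.5, 647 and 808 to 6.38, 1.09 and 2.24 normalized counts (log2 fold change −7.55 ± 0.24 SE, adjusted p = 1.9e-19). Slc15a1, a peptide transporter, fell from 402, 304 and 361 to 3.43, 1.09 and 1.49 (log2 fold change −7.20 ± 0.25 SE, adjusted p = 1.7e-18), and Tdh, a threonine dehydrogenase on which mouse ESCs depend, from 1563, 1466 and 1471 to 36.3, 44.6 and 32.8 (log2 fold change −5.33 ± 0.10 SE, adjusted p = 1.5e-23). All 3 genes were abundant in every ESC library and scarce in every NPC library. The others were Tlx2 (−6.82 ± 0.29), the water and glycerol channel gene Aqp3 (−6.65 ± 0.16), the nuclear receptor gene Nr5a2 (−5.02 ± 0.15), Ggt1 (−4.96 ± 0.16), Cpt1a, the gatekeeper of fatty acid import into mitochondria (−4.73 ± 0.10), and Trh, the thyrotropin-releasing hormone (−4.48 ± 0.15), besides Cdx1, Klf4 and Prdm14.

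In normalized counts, the largest gains after Peg10 among called genes were those of the mitochondrial rRNA gene mt-Rnr2, from 4649.6, 1490.1 and 3733 to 8987, 7897 and 11112 (log2 fold change 1.50 ± 0.34 SE, adjusted p = 7.0e-04), Txnip, an inhibitor of thioredoxin and of glucose uptake, from 1032, 897 and 923 to 5669, 5957 and 5314 (log2 fold change 2.57 ± 0.09 SE, adjusted p = 6.1e-19), Slc2a1 and mt-Co1 (1.21 ± 0.27). ESC replicate 2 had the lowest value of both mitochondrial genes. The largest losses among called genes were those of Gm23935, annotated as a miRNA and among the rRNA-like genes, from 107847, 199519 and 94416 to 13843, 16347 and 38178 (log2 fold change −2.55 ± 0.46 SE, adjusted p = 4.5e-05), CT010467.1, annotated as rRNA, from 2572, 58882 and 3287 to 2134, 3313 and 3764 (log2 fold change −2.81 ± 1.13 SE, adjusted p = 0.041), Tfcp2l1, and the linker histone genes H1f2 (−1.56 ± 0.19) and H1f1 (−1.45 ± 0.19). ESC replicate 2 decided the value of CT010467.1, whose libraries overlap: without it the log2 fold change was 0.08 (adjusted p = 0.958), and the call was also lost without each of the NPC libraries in turn, with values from −2.98 to −2.59. For H1f2 and H1f1, without ESC replicate 2 the values were −1.14 and −0.95. Tfcp2l1, a naive factor, went from 6302, 5172 and 6072 to 719, 865 and 877 (log2 fold change −2.84 ± 0.09 SE, adjusted p = 6.8e-20).

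The same differentiation in WT gives the background for these changes. Of the 4590 genes called in the Grb10 pA line, 3080 (67.1%) were called in the same direction in WT, which are 70.8% of those called in WT, and 17 were called in the opposite direction. Across the 13268 tested genes the log2 fold changes of both lines had a Pearson r of 0.87 and a Spearman rho of 0.76, as a description, since genes are not independent replicates. The difference between the changes was taken over the means of the 4 groups, and a level shared by ESCs and NPCs of a line cancels in it. The difference, Grb10 pA less WT, was positive for 379 genes (2.86% of those tested) and negative for 404 (3.04%). Their number was 783, and 506 without WT NPC replicate 2, the lowest count when 1 of the 12 libraries was left out. Of the 783 genes, 481 were also called within the Grb10 pA line, in which 34.6% of all tested genes were called. Both comparisons use the same Grb10 pA libraries, so this overlap is not independent. A rise in the Grb10 pA line that exceeded that in WT was seen for 186 genes and a fall that exceeded it for 227, and of these genes 17 were called in the opposite direction in WT. A further 126 genes rose in WT with a smaller rise, or none that was called, in the Grb10 pA line, and 153 fell in WT with a smaller fall or none called.

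**Figure D4:**
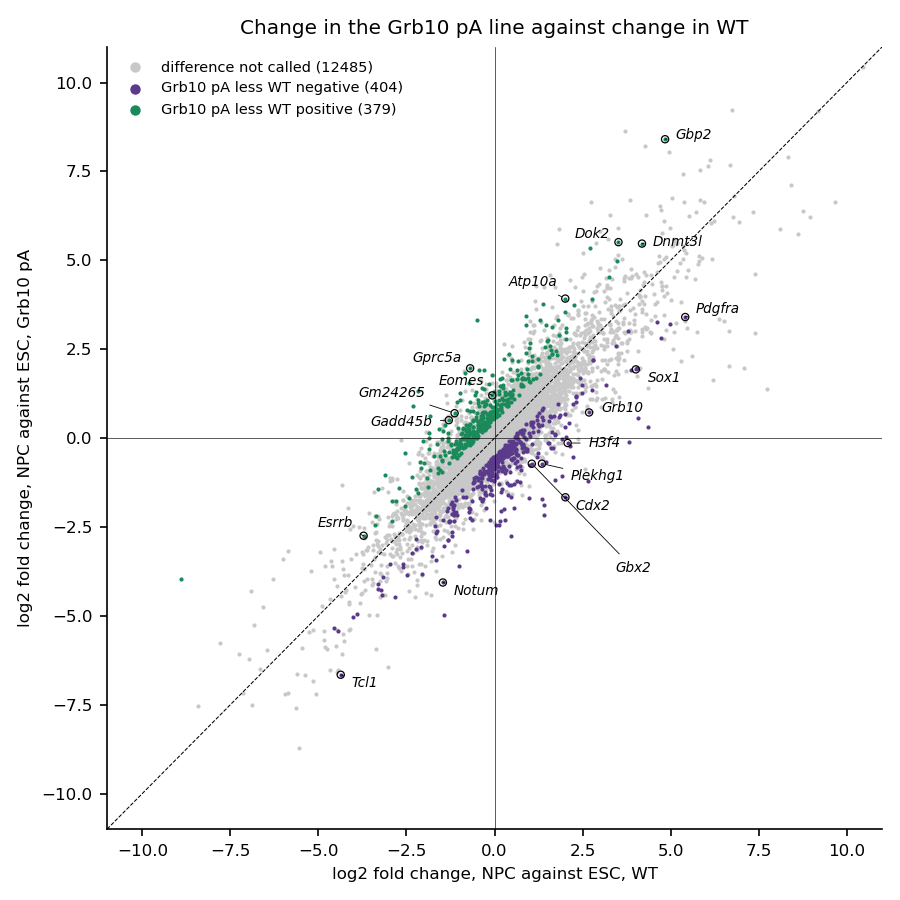
Log2 fold change of NPCs against ESCs in WT (horizontal) and in the Grb10 pA line (vertical) for the 13268 tested genes. Green marks the 379 genes with a positive and purple the 404 with a negative difference, and the dashed line is equality. Most points lie along the dashed line; Grb10 and Sox1 lie below it and Gprc5a and Eomes above it.

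Sox1, the neural marker that rose from 24.5, 31.6 and 31.0 to 96.2, 133 and 107 normalized counts in the Grb10 pA line, rose from 20.9, 23.9 and 16.9 to 366, 348 and 323 in WT. Each of the NPC libraries of the Grb10 pA line lay below each WT NPC library, and the difference of the changes was −2.08 ± 0.26 (adjusted p = 1.9e-05). Zic2, another neural marker, went the other way: it had 211, 165 and 156 and 216, 193 and 189.6 in WT, and the difference was 1.31 ± 0.17 (adjusted p = 3.8e-05). Of the 13 tested neural progenitor genes, the difference was positive for 2 and negative for 1, beside 2.86% and 3.04% of all tested genes. Sox1 lies on chromosome 8, whose 731 tested genes had a median log2 difference between Grb10 pA and WT of −0.48 in ESCs and −0.48 in NPCs, against medians between −0.06 and 0.09 on the other chromosomes. The part of this in the level of Sox1 was not tested, and it cancels in the difference of the changes if it acts equally on ESCs and NPCs. The study reports, from flow cytometry of Sox1 protein, that both truncation lines could form NPCs with this marker. That measure counts positive cells and not the level of RNA.

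Gbx2 and Cdx2 moved in opposite directions in the Grb10 pA line and in WT. Gbx2 fell in the Grb10 pA line as given above and rose in WT, from 79.9, 82.1 and 81.3 to 157, 189.9 and 153 normalized counts, with a difference of −1.78 ± 0.21 (adjusted p = 1.4e-05). Cdx2 went from 8.56, 13.4 and 8.47 to 35.3, 43.3 and 51.4 in WT, with a difference of −3.68 ± 0.55 (adjusted p = 1.6e-04). Of the naive genes, Esrrb fell less than in WT, where it went from 3471, 3143 and 2951 to 205, 284 and 226 (difference 0.97 ± 0.14, adjusted p = 1.4e-04), and so did Nanog (0.58 ± 0.12, adjusted p = 0.0037), while Klf4 fell more (−0.99 ± 0.22, adjusted p = 0.0068). In all, the difference was positive for 2 and negative for 5 of the 16 naive genes, with a median of −0.09. Over all tested genes it was positive for 2.86% and negative for 3.04%.

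Nodal, Foxh1, Eomes and Dnmt3l changed more upwards in the Grb10 pA line than in WT. Nodal had 338, 331 and 315 normalized counts in WT ESCs and 399, 422 and 389 in WT NPCs (difference 0.91 ± 0.11, adjusted p = 2.0e-05), and the difference of Foxh1 was 1.10 ± 0.19. For Nodal, the Grb10 pA libraries lay below all WT libraries in ESCs and above all of them in NPCs. Eomes, which was not called in WT (−0.06, adjusted p = 0.74), differed by 1.26 ± 0.20 (adjusted p = 2.1e-04). Dnmt3l had 79.9, 58.2 and 84.7 and 1184, 1397 and 1354 in WT (difference 1.28 ± 0.21, adjusted p = 5.1e-04). Of the 11 tested Nodal genes, the difference was positive for 3 and negative for 1, beside 2.86% and 3.04% of all tested genes. The median over the list was −0.14. The negative one was Tdgf1, whose call was lost when any of 8 of the 12 libraries was left out. Of the 14 tested BMP genes it was positive for 4 and negative for none, beside 2.86% positive and 3.04% negative of all tested genes, with Id3 at 2.39 ± 0.52 (adjusted p = 0.0057).

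The 4 endoderm genes that differed rose less in the Grb10 pA line than in WT. The difference was negative for 4 of the 16 tested genes and positive for none, against 3.04% and 2.86% of all tested genes, with a median of −0.39. Lamb1 had 89.4, 65.0 and 86.4 normalized counts in WT ESCs and 998, 1181 and 1055 in WT NPCs (difference −0.77 ± 0.15, adjusted p = 0.0028), and Lama1 differed by −0.97 ± 0.17 (adjusted p = 6.9e-04). In both genes the WT ESC libraries lay below those of Grb10 pA. Gata6 had 7.61, 5.97 and 6.77 and 206, 197 and 247 in WT (difference −1.77 ± 0.44, adjusted p = 0.015). Its call was lost without Grb10 pA ESC replicate 1 (−1.41, adjusted p = 0.098) and without WT ESC replicate 2 (−1.65, adjusted p = 0.060). Pdgfra, a receptor of primitive endoderm, differed by −2.01 ± 0.52 (adjusted p = 0.019), and its call was lost without Grb10 pA ESC replicate 2 (−1.79, adjusted p = 0.054) and without WT ESC replicate 1 (−1.90, adjusted p = 0.061).

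**Figure D5:**
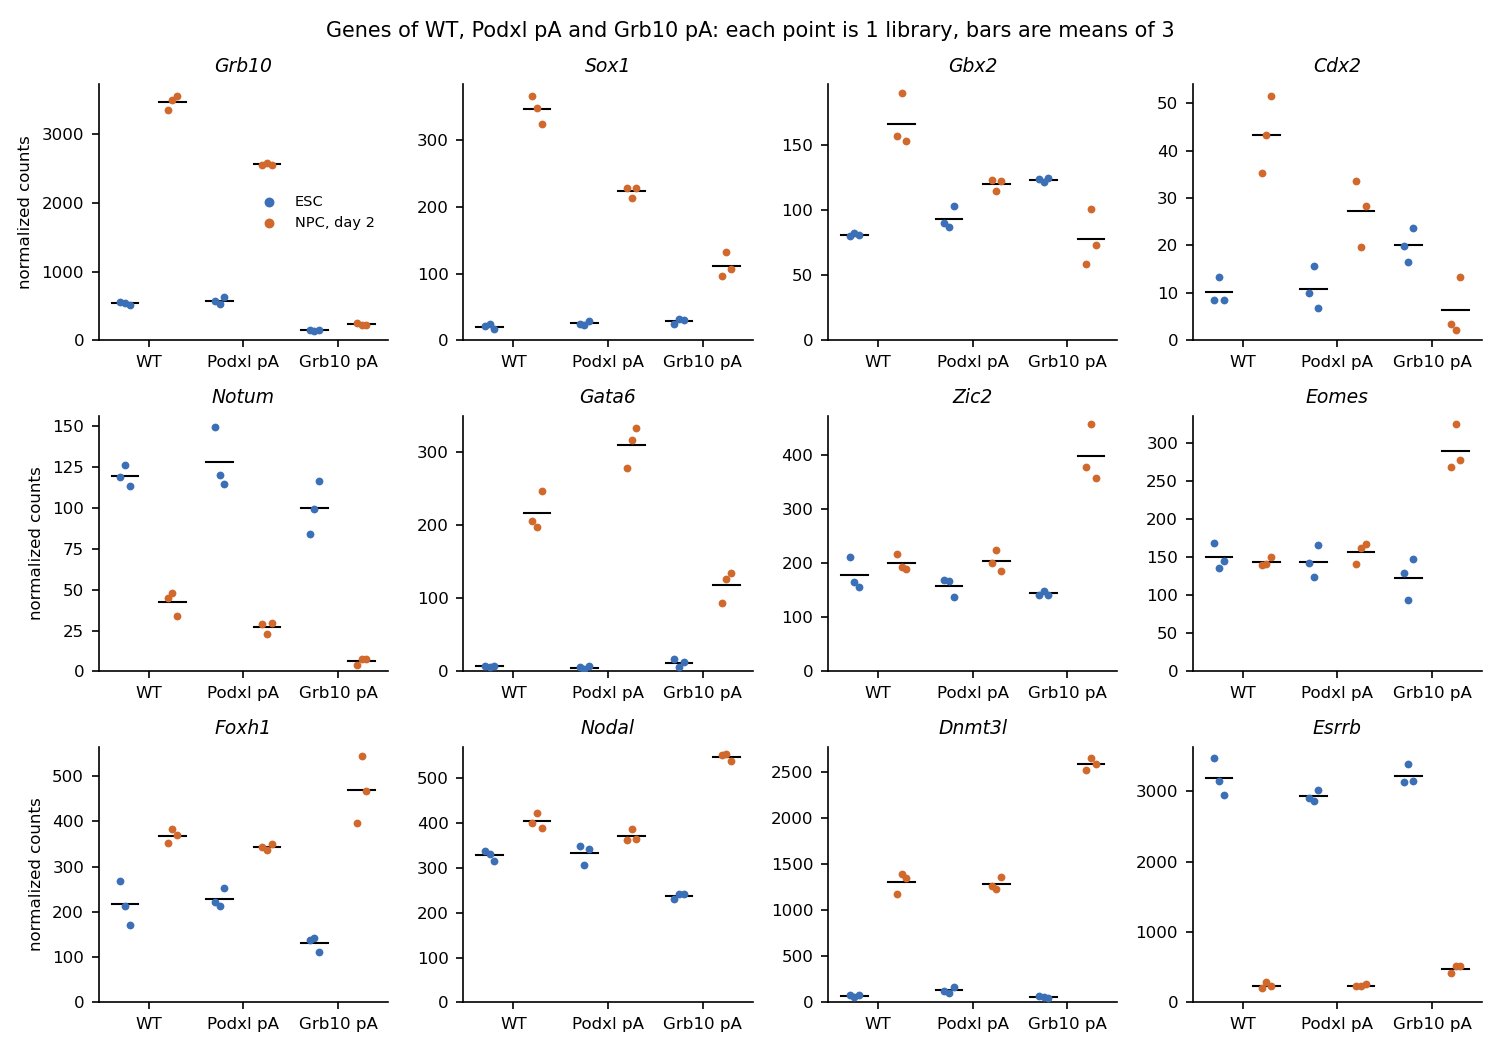
Normalized counts of 12 genes in the 18 libraries, by line (horizontal) and by state (blue, ESCs; orange, day 2 NPCs). Points are single libraries and bars are means of 3. Grb10 reaches at most 259 in the Grb10 pA line and at least 3353 in WT NPCs, Sox1 is lower in Grb10 pA NPCs than in the NPCs of both other lines, and Gbx2 and Cdx2 fall in the Grb10 pA line and rise in WT.

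Of the genes with the largest differences from WT, Notum fell from 119, 126 and 113 to 45.2, 48.0 and 33.8 normalized counts in WT and much further in the Grb10 pA line (−2.60 ± 0.32, adjusted p = 2.0e-05). Tcl1, a cofactor of AKT in naive cells, differed by −2.29 ± 0.53 (adjusted p = 0.0093), with the call lost without WT NPC replicate 2 (−2.26, adjusted p = 0.060). H3f4, a histone H3 gene, rose in WT from 47.5, 63.5 and 59.3 to 246, 254 and 216 and was not called in the Grb10 pA line, from 30.2, 85.8 and 42.4 to 54.0, 43.5 and 34.3 (difference −2.21 ± 0.33, adjusted p = 1.3e-04). Plekhg1 differed by −2.07 ± 0.27 (adjusted p = 3.6e-05). On the positive side, Gprc5a, a receptor induced by retinoic acid, rose in the Grb10 pA line from 45.3, 52.7 and 42.4 to 136, 215 and 199.8 and fell in WT from 150.2, 136 and 115 to 72.0, 88.6 and 88.2 (difference 2.66 ± 0.25, adjusted p = 3.1e-07).

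Dok2, an adaptor of receptor tyrosine kinases, differed by 1.99 ± 0.45 (adjusted p = 0.0071), the lipid flippase gene Atp10a by 1.91 ± 0.31 (adjusted p = 3.3e-04) and the stress response gene Gadd45b by 1.80 ± 0.23 (adjusted p = 2.2e-05). Atp10a rose from 7.55, 9.03 and 6.20 normalized counts to 114, 109 and 120.0 in the Grb10 pA line and from 38.0, 32.9 and 35.6 to 152, 133 and 145 in WT, so that the lines lay further apart in ESCs than in NPCs. Gm24265 differed by 1.83 ± 0.50 (adjusted p = 0.028), and its ESC and NPC libraries overlap in the Grb10 pA line, with 84.0, 116 and 82.6 and 87.3, 254 and 132. This call was lost without each of 5 of the 12 libraries, namely Grb10 pA ESC replicate 3, Grb10 pA NPC replicate 2, WT ESC replicate 1 and WT NPC replicates 1 and 2, with values from 1.33 to 1.76. Gbp2, which encodes a guanylate-binding protein induced by interferon, had 1 count over the Grb10 pA ESC libraries, so that its difference of 3.56 (adjusted p = 0.04987) depends on how a count near 0 is treated, and its call was lost when any of 11 of the 12 libraries was left out, with values from 2.99 to 3.82, and held only without Grb10 pA ESC replicate 2.

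Against the change in Podxl pA, the line with the same cassette in another gene, the difference was positive for 264 genes (1.99%) and negative for 472 (3.56%). This contrast shares the Grb10 pA libraries with the contrast to WT and is therefore given side by side with it, not as a separate line of evidence. Grb10 had 567, 527 and 627 normalized counts in Podxl pA ESCs and 2555, 2575 and 2554 in NPCs, and the difference of the changes was −1.45 ± 0.12 (adjusted p = 1.1e-07), against −1.96 to WT. Sox1 had 25.2, 23.2 and 29.2 and 229, 213 and 228 in Podxl pA, between the other lines in NPCs, with a difference of −1.22 ± 0.25 (adjusted p = 0.0034), against −2.08 to WT. Cdx2 differed by −2.80 ± 0.56 (adjusted p = 0.0025) and Gata6 by −2.87 ± 0.48 (adjusted p = 4.0e-04). Of the 16 tested endoderm genes the difference to Podxl pA was negative for 6 and positive for none. Single libraries were not left out gene by gene for this contrast.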

How the data were processed

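RNA was extracted from Grb10 pA, Podxl pA and WT ESCs and day 2 NPCs, depleted of rRNA, and sequenced as directional paired-end libraries. The deposited values are raw counts per gene, which the authors obtained with STAR on mm10 and featureCounts within the sns pipeline, without use of strand; their versions and the gene annotation are not given in the sources used here. The table holds 18 libraries of 3 replicates per group, with 1907505 to 8845087 counts each, and 3 columns that match no sample were not used; the rescue lines were not used here. Counting intervals cover counting error only.

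The counts were analysed with edgeR 4.0.16 (R 4.3.3): genes were filtered with filterByExpr, scaled with TMM, and tested with the quasi-likelihood F test in 1 model of 6 group means over all 18 libraries, with Benjamini-Hochberg adjustment. A gene was called at an adjusted p of at most 0.05 and an absolute log2 fold change of at least 0.5. Contrasts were NPC against ESC in each line, and the differences of this change between Grb10 pA and WT or Podxl pA. Standard errors are the fold change divided by the square root of F. The procedure was run on counts simulated with the spread that it had itself fitted. This checks the code and cannot show how well the model describes these data. Named genes are Grb10, members of 36 lists, the 12 largest rises and falls with at least 100 mean normalized counts and no overlap, the 5 largest gains and losses in normalized counts, the 6 largest differences from WT in each direction with at least 50 mean normalized counts, and genes within 1 Mb of Grb10. These rises, falls, gains, losses and differences were ranked among called genes only. The members and lists were chosen with earlier results of these data known. Positions are from GENCODE M21 and promoter windows from RefSeq, both on GRCm38. DESeq2 1.42.0, other scalings and filters, other cutoffs, a replicate block and leaving out each library were alternatives. A few list members are counted but not reported here by name.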

Additional observations from a re-analysis of the deposited data

Results flagged for a closer look

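Of the 171 tested genes named above, 54 had a log2 fold change with differentiation in the Grb10 pA line that differed from that in WT by the test of the difference itself, and these are listed as the value of Grb10 pA less WT. Some of the 171 genes were named because of this difference. Tfap2a, Tfap2c, Grhl3, Msx2 and Smad7 are not among the 171, and of these Tfap2c and Grhl3 also differed from WT. Over all tested genes it was positive for 2.86% and negative for 3.04%. Among regulators of cell state, it was negative for Grb10 (−1.96), Cdx2 (−3.68), Foxd3 (−2.52), Tcl1 (−2.29), Sox1 (−2.08), Gbx2 (−1.78), Klf4 (−0.99), Nr5a2 (−0.99), Klf2 (−0.73), Sall4 (−0.68) and Lin28a (−0.62). It was positive for Zic2 (1.31), Zic5 (0.69), Eomes (1.26), Esrrb (0.97), Nanog (0.58), Utf1 (0.73), Tex19.1 (1.47) and Dnmt3l (1.28). Among signalling genes, it was positive for Id3 (2.39), Id1 (1.46), Foxh1 (1.10), Nodal (0.91), Bmp4 (0.85), Rbpj (0.74) and Stat3 (0.64), and negative for Notum (−2.60), Ntn1 (−1.06), Spry2 (−0.95), Gli2 (−0.77) and Tdgf1 (−0.61). Among endoderm genes, it was negative for Pdgfra (−2.01), Gata6 (−1.77), Lama1 (−0.97) and Lamb1 (−0.77). Of the others, it was positive for Gbp2 (3.56), Gprc5a (2.66), Dok2 (1.99), Atp10a (1.91), Gm24265 (1.83), Gadd45b (1.80), mt-Co1 (1.75), Txnip (1.15) and Mest (0.74). It was negative for H3f4 (−2.21), Plekhg1 (−2.07), Trh (−1.65), Ddc (−1.35), H1f1 (−1.33), H1f2 (−1.28), Ggt1 (−1.06), Ldhb (−0.93), Tdh (−0.77) and Stmn2 (−0.56). Without Grb10 pA ESC replicate 2, the values of H1f1 and H1f2 were −0.83 and −0.86 and were still called.

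Of these differences, 15 lost their call when single libraries among the 12 were left out. The call of Gbp2 was lost without 11 of them, of Foxd3 and Ntn1 without 10 each, of Tdgf1 and Bmp4 without 8 each, of Gm24265 without 5, of Zic5, Stmn2 and Id1 without 3 each, of Gata6, Pdgfra, Nr5a2 and Gli2 without 2 each, and of Tcl1 and Klf2 without 1 each. WT NPC replicate 2 was among the libraries whose absence ended the call for Tcl1 (−2.26, adjusted p = 0.060) and Klf2 (−0.63, adjusted p = 0.056).

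Against Podxl pA, 62 of the 171 genes had a differing change, beside 1.99% positive and 3.56% negative of all tested genes. This list shares the Grb10 pA libraries with the list above. The difference, Grb10 pA less Podxl pA, was negative for Grb10 (−1.45), Gata6 (−2.87), Cdx2 (−2.80), Tcl1 (−2.73), Pdgfra (−1.88), Lama1 (−1.32), Sox1 (−1.22), Gbx2 (−1.11), Lamb1 (−1.11), Col4a1 (−0.91), Nes (−0.87), Klf4 (−1.17), Nr5a2 (−1.18), Klf2 (−0.96) and Sall4 (−0.67). It was positive for Id3 (2.22), Dnmt3l (2.09), Tex19.1 (1.57), Id1 (1.51), Foxh1 (1.23), Pou3f1 (1.17), Zic2 (1.12), Nodal (1.04), Eomes (1.03), Esrrb (0.85), Nanog (0.79), Zfp42 (0.78), Utf1 (0.57), Lefty1 (0.61) and Rbpj (0.65). Of the others, it was positive for Car4 (4.36), Gbp2 (4.32), Gprc5a (2.79), Gm24265 (1.72), Atp10a (1.70), Dok2 (1.68), Gadd45b (1.39), Mest (1.15), Txnip (1.00) and Epcam (0.63). It was negative for Gm23935 (−3.21), Plekhg1 (−2.43), H3f4 (−1.93), Notum (−1.82), Ggt1 (−1.72), Aldh1l1 (−1.25), Aqp3 (−1.20), Tdh (−1.13), Ldhb (−1.06), H1f1 (−1.05), Trh (−1.02), H1f2 (−0.95), Amot (−0.92), Stmn2 (−0.89), Axin2 (−0.88), Gli2 (−0.84), Foxo3 (−0.69), Tdgf1 (−0.66), Spry2 (−0.65), Fn1 (−0.63), Lifr (−0.58) and Insr (−0.56). The value of Car4 rests on groups close to 0: the Grb10 pA ESC libraries held 2 counts of it in all, and the Podxl pA ESC libraries 1.01, 4.09 and 44.9 normalized counts, so that the third library stood apart. Groups of 3 libraries are too small for a test of single outlying libraries.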

How the results depend on the processing

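The number of genes called in the Grb10 pA line, 4590, was 4389 with DESeq2, 4559 with RLE factors, 4554 with upper quartile factors, 4884 without a filter, 3223 with at least 10 counts in each library compared and 4130 with only the 6 libraries in the model. A log2 fold change of at least 1 left 2471 genes, 1332 of them higher and 1139 lower, and 299 and 263 genes with a difference from WT and from Podxl pA. An adjusted p of at most 0.01 left 314 and 316 of these differences. Leaving out 1 library gave 4389 to 4588 called genes, 2198 to 2290 higher and 2141 to 2340 lower, 506 to 943 differences from WT (main 783) and 518 to 889 from Podxl pA (main 736). Without a filter 844 differences from WT were called, of which 63.3% were positive, against 48.4% with it, and the cause was not tested. With a replicate block, 4483 genes were called in the Grb10 pA line, 540 differed from WT and 549 from Podxl pA. The labels do not say whether ESC and NPC libraries of the same number belong together. The correlations of their deviations in the Grb10 pA line were −0.04, −0.01 and 0.02, and not every library correlated best with its own number. Deviations from means of 3 libraries cannot decide whether these libraries were paired, and the main model does not pair them. The direction reversed for CT010467.1 alone, which ranged from −3.34 to 0.078 when 1 library was left out, the last without ESC replicate 2 of the Grb10 pA line, and was 0.077 when this library and WT ESC replicate 1, both rich in rRNA-like counts, were left out together. That alternative and the one without rRNA-like and mitochondrial genes were chosen after seeing the data and gave 4473 and 4553 called genes. Of 314 listed or named genes called in the Grb10 pA line, 208 to 313 were still called under each alternative, the fewest with the 10-count filter, which did not test 103 of them. The median of all genes stayed within 0.1 under every scaling. Depth limits genes with few counts in ESCs, whose ratios carry wide counting intervals.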
